A study of Mus musculus with 12 samples.

Results

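Gene expression in the proximal ileal epithelium of mice given 10 µg/kg TCDD, a chlorinated dioxin, was compared with that of vehicle controls. The comparison took the 3 libraries labelled with a dose of 10 and the 3 labelled with a dose of 0, which are 6 of the 12 libraries in the series. All genes were eligible, and 15823 of the 46078 genes in the files passed the filter on low counts and were tested. The samples were epithelial scrapings from male C57BL/6 mice, 28 days old at the first dose and 56 days old at the end. Vehicle mice received sesame oil by oral gavage, and treated mice received 10 µg/kg TCDD in the same oil, as 7 gavages at intervals of 4 days with sampling on day 28. The other 6 libraries came from mice given 3 or 30 µg/kg on that schedule and are used here to place the 10 µg/kg values. The libraries of a dose are described as biological replicates, with as many mice as libraries in each group. Each p-value sets a change against the spread between libraries of a dose, estimated over all 12 libraries.

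The aryl hydrocarbon receptor (AhR) is a ligand-activated transcription factor that dioxins bind with high affinity. It acts on DNA together with a partner protein, ARNT, and the sites they occupy in target genes, known as DREs, have a short core of bases in common. Its best known targets encode cytochrome P450 enzymes that oxidize foreign compounds, enzymes that conjugate the products, and a repressor that limits the receptor itself, and in the intestine the receptor also responds to plant and microbial compounds.

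Sequencing depth, counted as reads assigned to genes, ranged from 17890737 to 22180274 per library in vehicle and from 13713866 to 15733850 at 10 µg/kg. A floor of 3 counts equaled 0.139 to 0.267 CPM (counts per 1000000, with TMM factors to scale between libraries) over the 12 libraries, a limit that covers counting error only. Epithelial genes were abundant in both groups, with Fabp2, the intestinal fatty acid binding protein, at 2151 to 2594 CPM in vehicle and 2577 to 3400 at 10 µg/kg. Fabp6, the ileal bile acid binding protein, which marks the distal ileum, had 0.0525 to 0.0926 CPM in vehicle and 0.144 to 0.306 at 10 µg/kg, against 22.9 to 38.3 CPM at 3 µg/kg. The libraries differed in clock genes within each group. Dbp, a clock output gene, had 1.07, 121 and 86.4 CPM in the 3 vehicle libraries and 64.4, 1.16 and 0.98 in those of 10 µg/kg. Smooth muscle genes had lower summed levels at 10 µg/kg (given with the other cell type lists), and the 3 libraries of 10 µg/kg stood apart from the other 9 by reads of hindgut genes, with Hoxa13 at 6, 7 and 8 counts against 0 in every other library. In bulk samples, fewer cells of a type and less RNA per cell cannot be told apart.

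Calls required a change of at least 1.5-fold together with an adjusted p under 0.05 (edgeR quasi-likelihood test, Benjamini-Hochberg adjustment over all genes tested). At 10 µg/kg, 97 genes were called, or 0.613% of those tested. The genes called higher numbered 77 (0.487%), of which 28 changed by over 4-fold and 23 by under 2-fold. The genes called lower numbered 20 (0.126%), of which 2 changed by over 4-fold and 10 by under 2-fold. In each of the 97 genes the CPM of the 2 groups did not overlap, a property shared by 22.9% of all genes tested. The median log2 change of all genes tested was -0.01. The 4 largest fitted rises were those of Car1, Atp12a, Tgm3 and Cyp1a1. Of the 20 genes called lower 8 were protein coding and 9 were small or ribosomal RNA, among them the 5 with the highest mean count.

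**Figure D1:**
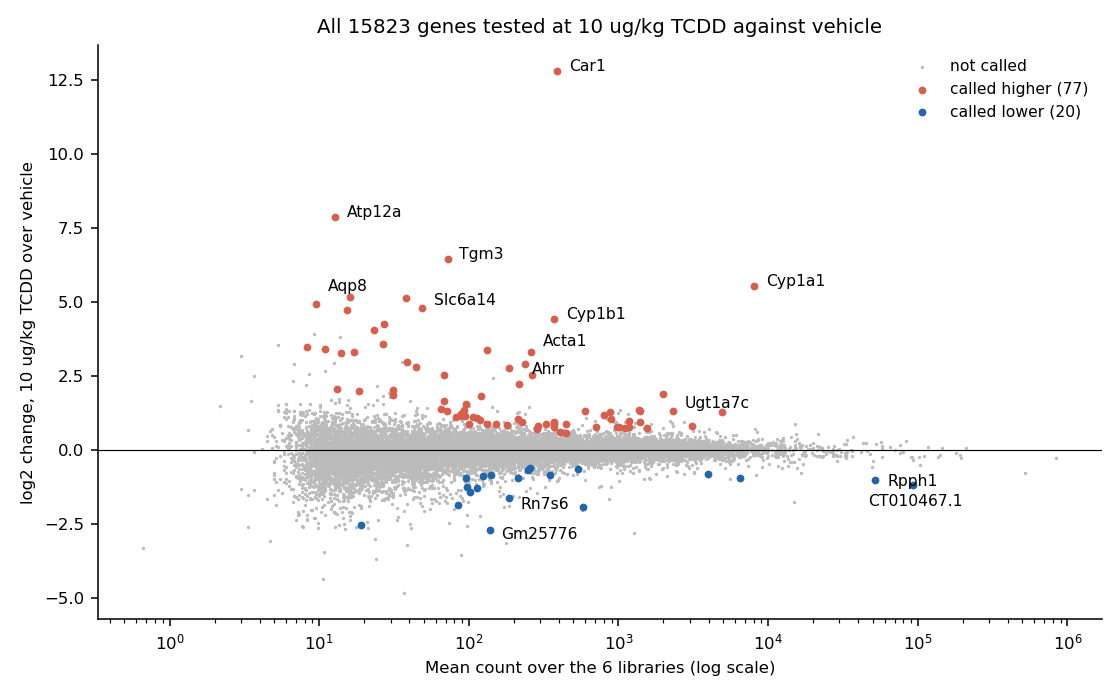
Log2 change at 10 µg/kg TCDD over vehicle against the mean count over the 6 libraries (log scale), 1 point per gene tested. Red points are the 77 genes called higher and blue points the 20 called lower, and the fitted values of Car1 and Atp12a depend on the prior count because no vehicle library held a read of them.

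The DRE core GCGTG was searched on both strands of 300-base promoter windows (250 bases before to 50 after the start site, RefSeq, GRCm38.p6) for the genes of the AhR and cobalamin (Cbl) lists and the largest rises and falls. Of 28 such genes, 18 had a window and 7 held the core. The core was present in 32.4% of all promoter windows and in 48.2% of those of tested genes. It was in 22 of 61 windows (36.1%) of genes called higher and in 2 of 8 windows (25%) of genes called lower. These windows also differed in CG pairs, a pair that the core contains, with medians of 11 and 14.5 against 19 for tested genes. The 4 windows below belong to genes called higher and are shown because each holds the core, which is in capitals. Cyp1b1 carries it on the other strand, so it reads CACGC there.
Cyp1a1 promoter (chr9:57697363-57697662, plus strand): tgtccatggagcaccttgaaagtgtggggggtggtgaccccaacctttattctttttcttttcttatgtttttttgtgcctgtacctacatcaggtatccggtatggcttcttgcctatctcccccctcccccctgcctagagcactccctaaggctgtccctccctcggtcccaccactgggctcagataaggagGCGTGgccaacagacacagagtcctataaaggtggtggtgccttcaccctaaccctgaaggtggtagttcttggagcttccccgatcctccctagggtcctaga
Cyp1b1 promoter (chr17:79715012-79715311, minus strand): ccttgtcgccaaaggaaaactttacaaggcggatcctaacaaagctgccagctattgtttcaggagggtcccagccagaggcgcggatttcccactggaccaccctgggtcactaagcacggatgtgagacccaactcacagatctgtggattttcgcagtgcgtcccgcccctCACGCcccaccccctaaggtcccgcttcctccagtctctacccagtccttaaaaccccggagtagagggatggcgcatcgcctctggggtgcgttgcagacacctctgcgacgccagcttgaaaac
Ahrr promoter (chr13:74292282-74292581, minus strand): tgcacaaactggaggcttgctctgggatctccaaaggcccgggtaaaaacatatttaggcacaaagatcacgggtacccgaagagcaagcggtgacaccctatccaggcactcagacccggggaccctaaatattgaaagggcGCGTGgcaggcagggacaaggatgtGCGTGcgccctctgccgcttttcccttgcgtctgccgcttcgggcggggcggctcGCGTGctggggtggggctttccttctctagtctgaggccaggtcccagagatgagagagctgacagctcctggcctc
Mt2 promoter (chr8:94172368-94172667, plus strand): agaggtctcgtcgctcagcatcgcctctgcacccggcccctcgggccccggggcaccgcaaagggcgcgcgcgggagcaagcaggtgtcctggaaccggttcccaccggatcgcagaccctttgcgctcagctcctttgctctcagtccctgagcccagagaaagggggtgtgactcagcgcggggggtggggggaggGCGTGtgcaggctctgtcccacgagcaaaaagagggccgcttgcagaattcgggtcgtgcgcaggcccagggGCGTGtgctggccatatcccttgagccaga
The first base of the core lay at -54 in Cyp1a1 and at -76 in Cyp1b1. Ahrr held 3 copies, at -107, -82 and -27, and Mt2 held 2, at -52 and 21. Windows of Tiparp, Lmbrd1 and Prr5l also held the core, whereas the windows of Nqo1, Cyp1a2, Cubn, Amn, Tgm3, Ildr1, Dgkh, Acta1, St6galnac6, 1810065E05Rik and Romo1 did not. Car1, Gm15500, Abcc1 and Tcn2 were among the 10 genes without a window. A match of 5 letters is a description of the window and not a binding site.

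AhR target genes were induced at 10 µg/kg, with 3 of the 6 core targets called. Cyp1a1 (ENSMUSG00000032315, chromosome 9, 57687928 to 57703824, GRCm38), which encodes a P450 enzyme that oxidizes polycyclic hydrocarbons, had 22.7, 27.5 and 19.0 CPM in the 3 vehicle libraries and 1333, 1019 and 872 CPM at 10 µg/kg. Every treated library lay far above every vehicle library, a 46.6-fold induction (log2 change 5.54, SE 0.53, adjusted p 2.22e-04, edgeR). Cyp1b1 (ENSMUSG00000024087, chromosome 17, 79701537 to 79715061), a related P450 enzyme that also oxidizes estrogens, had 1.35, 2.64 and 2.63 CPM in vehicle and 52.4, 45.9 and 45.9 at 10 µg/kg. The 3 treated libraries lay close together, and the 21.5-fold rise had the smallest p of all genes tested (log2 change 4.43, SE 0.22, adjusted p 8.86e-07, edgeR). Ahrr (ENSMUSG00000021575, chromosome 13, 74211118 to 74292331), the AhR repressor, had 2.48, 4.26 and 4.05 CPM in vehicle and 21.9, 29.7 and 30.4 at 10 µg/kg, again without overlap, and rose 7.55-fold (log2 change 2.92, SE 0.21, adjusted p 1.94e-05, edgeR). These 3 genes were called in each of the 18 other settings tried.

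The remaining core targets did not pass the test. Tiparp, which encodes a mono-ADP-ribosyltransferase that dampens AhR signaling, had 36.7, 38.3 and 41.5 CPM in vehicle and 61.4, 63.9 and 56.8 at 10 µg/kg. The groups did not overlap but the change missed the threshold (log2 change 0.65, SE 0.14, adjusted p 0.0628, edgeR). It passed in 4 of the 18 settings, among them DESeq2 and the 6 libraries fitted alone. Nqo1, a quinone reductase, had 14.7, 18.7 and 20.1 CPM in vehicle and 25.7, 17.5 and 25.1 at 10 µg/kg, and the groups overlapped (log2 change 0.35, SE 0.16, adjusted p 0.32, edgeR). Cyp1a2, the P450 neighbor of Cyp1a1 that is mainly hepatic, was low throughout, at 1.13, 2.31 and 0.788 CPM in vehicle and 0.216, 0.29 and 0.429 at 10 µg/kg. Its values were lower in every treated library, near the floor of 3 counts (log2 change -2.14, SE 0.50, adjusted p 0.0942, edgeR), and DESeq2 called it lower.

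Cyp1a1, Cyp1b1 and Ahrr at 10 µg/kg lay above every library of 3 µg/kg and below every library of 30 µg/kg. The comparison of 10 with 3 µg/kg called 25 genes (0.158%), 23 higher and 2 lower at 10 µg/kg, and that of 30 with 10 µg/kg called 439 genes (2.77%), 343 higher and 96 lower at 30 µg/kg. Both comparisons share the 10 µg/kg libraries with the comparison against vehicle. The 3 µg/kg libraries also held more Fabp6, which marks the distal ileum, and the part of gut segment in the differences between doses was not tested. Cyp1a1 had 141, 68.8 and 22.2 CPM at 3 µg/kg and 3088, 3251 and 2608 at 30 µg/kg. It was called against 3 µg/kg (log2 change 3.80, SE 0.49, adjusted p 0.00543, edgeR) and not between 10 and 30 µg/kg (log2 change 1.47, SE 0.44, adjusted p 0.0795, edgeR). Cyp1b1 had 3.17, 5.20 and 3.70 CPM at 3 µg/kg and 114, 93.0 and 102 at 30 µg/kg, and both steps were called, with adjusted p of 3.27e-06 and 0.00382 in edgeR. Ahrr had 3.62, 4.79 and 4.05 CPM at 3 µg/kg, overlapping with vehicle, and 58.1, 42.4 and 56.1 at 30 µg/kg, with adjusted p of 4.99e-05 and 0.013 for the 2 steps in edgeR.

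**Figure D2:**
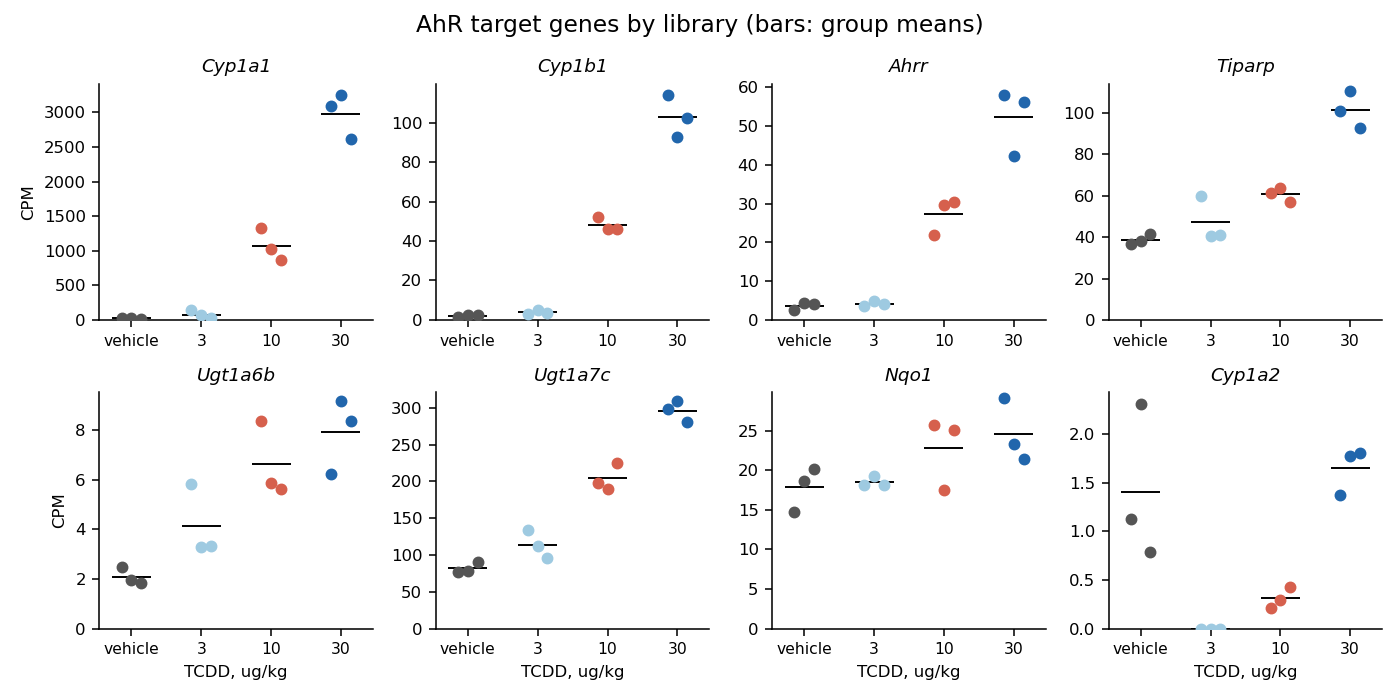
CPM of 8 AhR target genes in each of the 12 libraries, by TCDD dose, with bars at the group means (linear axes from 0). Cyp1a1, Cyp1b1 and Ahrr at 10 µg/kg lay above all libraries of vehicle and 3 µg/kg and below all libraries of 30 µg/kg, whereas Nqo1 overlapped with vehicle.

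Conjugating enzymes of the Ugt1a locus rose beside the P450 genes. This locus on chromosome 1 encodes UDP-glucuronosyltransferases that attach glucuronic acid to phenols, bilirubin and drugs, and its genes use separate first exons with shared later exons. Ugt1a7c (ENSMUSG00000090124, chromosome 1, 88095062 to 88220002) had 77.3, 78.9 and 90.8 CPM in vehicle and 198, 190.3 and 225 at 10 µg/kg, a 2.48-fold rise with no overlap (log2 change 1.31, SE 0.12, adjusted p 1.99e-04, edgeR). Ugt1a6b was lower in level, with 2.48, 1.94 and 1.84 CPM in vehicle and 8.35, 5.88 and 5.63 at 10 µg/kg (log2 change 1.66, SE 0.27, adjusted p 0.0125, edgeR). Ugt1a9, named after its values were seen, had 1.01, 0.417 and 0.946 CPM in vehicle and 3.89, 2.76 and 3.00 at 10 µg/kg (log2 change 2.03, SE 0.40, adjusted p 0.0372, edgeR). Gm15372, Gm15374 and Gm15371, annotated as pseudogenes within the span of Ugt1a7c, were called too, with log2 changes of 1.80, 1.54 and 1.31. At the same locus Ugt1a1, the bilirubin-conjugating form, had 129, 134 and 142 CPM in vehicle and 97.8, 78.4 and 84.2 at 10 µg/kg and was not called (log2 change -0.64, SE 0.16, adjusted p 0.0943, edgeR). Reads in the shared exons cannot be assigned to 1 gene, and the locus has an antisense gene, Gm20528, so the split between these genes is uncertain. The call of Ugt1a6b was lost without vehicle replicate 2 or 3 or 10 µg/kg replicate 1 (adjusted p up to 0.0843), and that of Ugt1a9 without any 1 of the 6 libraries (adjusted p up to 0.14).

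Wider lists of AhR and stress genes showed few calls. For the counts at an unadjusted p under 0.05 given here and below, the share over all genes tested was 15.9%, with 7.99% higher and 7.88% lower. Of 11 tested genes in the wider AhR battery, Ugt1a6b was the 1 called, and 4 had an unadjusted p under 0.05, with a median log2 change of 0.20. Selenbp1, a selenium-binding protein, had 11.1, 13.9 and 11.6 CPM in vehicle and 22.8, 24.4 and 20.4 at 10 µg/kg and missed the threshold (log2 change 0.88, SE 0.18, adjusted p 0.0547, edgeR). Of 13 phase II conjugation genes Ugt1a7c was the 1 called (median 0.05), and of 13 NRF2 oxidative stress genes 0 were called in edgeR or DESeq2 while 3 had an unadjusted p under 0.05 (median 0.07). Of the 8 genes of the AhR machinery 0 were called in edgeR or DESeq2 and 4 had an unadjusted p under 0.05, all positive, led by the chaperone gene Hsp90aa1 at 44.1, 38.1 and 43.0 CPM in vehicle and 55.8, 60.4 and 65.0 at 10 µg/kg (log2 change 0.53, SE 0.15, adjusted p 0.135, edgeR).

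Car1 and Atp12a, known from the colon, had the largest fitted rises. Car1 (ENSMUSG00000027556, chromosome 3, 14766216 to 14808368), a carbonic anhydrase of the colonic surface epithelium that is also made by red cells, had 0 counts in the 3 vehicle libraries and 55.7, 62.2 and 43.7 CPM at 10 µg/kg. The libraries of 3 and 30 µg/kg also held 0 counts of it. Set over a floor of 3 counts per vehicle library, the 10 µg/kg mean was at least 347-fold higher (edgeR adjusted p 4.64e-05). Atp12a (ENSMUSG00000022229, chromosome 14, 56365068 to 56388550), a proton-potassium pump of the distal colon, had 0 counts in the other 9 libraries and 2.23, 1.52 and 1.53 CPM at 10 µg/kg, at least 11.4-fold above the vehicle floor (edgeR adjusted p 0.0129). Aqp8 (ENSMUSG00000030762, chromosome 7, 123462291 to 123468004), a water channel of colonic epithelium, had 0.282, 0.0926 and 0.0525 CPM in vehicle and 5.62, 4.72 and 4.84 at 10 µg/kg (log2 change 5.12, SE 0.58, adjusted p 9.41e-04, edgeR). It had 0, 0.0584 and 0 CPM at 3 µg/kg and 0.357, 0.0889 and 0.821 at 30 µg/kg, so the 10 µg/kg libraries stood apart from the other 9. Without vehicle replicate 1 its log2 change was 5.97. Car1 and Atp12a were the 2 genes with no count in vehicle and at least 10 in every library of 10 µg/kg, and 0 genes showed the reverse.

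Car1, Atp12a and Aqp8 were the called members among 12 tested genes of the colon epithelium list, whose median log2 change was 0.88 against -0.01 for all genes tested. These 3 genes passed the filter on low counts only through the 10 µg/kg libraries, so the list's calls and median lean upward. The summed level of the tested members overlapped, at 630.5 to 709.2 CPM in vehicle and 699.9 to 731.8 at 10 µg/kg. A further 4 members had an unadjusted p under 0.05 and were higher, among them Aqp4, another water channel, at 5.92, 9.81 and 8.88 CPM in vehicle and 17.3, 15.3 and 19.4 at 10 µg/kg (log2 change 1.07, SE 0.25, adjusted p 0.0799, edgeR). Of the remaining tested members, 2 had an unadjusted p under 0.05 and were lower, and none was called in the main edgeR fit, whereas DESeq2 called 6 members of the list higher. Slc26a3, the chloride-bicarbonate exchanger, had 164, 175 and 192 CPM in vehicle and 180, 192 and 208 at 10 µg/kg (log2 change 0.12, SE 0.11, adjusted p 0.593, edgeR). Of the 8 listed genes below the filter, Hoxa13, a homeobox gene of the hindgut, had reads at 10 µg/kg alone, as given above. Hoxb13, a paralog in another cluster, had 9, 5 and 16 counts at 10 µg/kg, 3, 0 and 3 in vehicle and 0 at 3 and 30 µg/kg. Scnn1b, a subunit of the epithelial sodium channel, had 3, 4 and 1 counts at 10 µg/kg and 0 in the other 9 libraries. Scnn1g, another subunit, summed to 5 counts at 10 µg/kg, 0 in vehicle and 6 at 30 µg/kg, and Hoxd13 to 2 at 10 µg/kg and 0 elsewhere. Muc1, a membrane mucin, summed to 5 counts at 10 µg/kg and 13 in vehicle, Fxyd4 to 1 and 2, and Hoxd12 had none. The 7 red cell genes examined, which include Alas2 and the hemoglobin genes, summed to 18 counts over the 3 libraries of 10 µg/kg and 37 over those of vehicle, although reads shared by near-identical hemoglobin copies would not have been counted. The call of Atp12a was lost without vehicle replicate 2 or any 1 library of 10 µg/kg (adjusted p up to 0.0695), and with a smooth muscle score as a covariate that of Aqp8 was lost too (adjusted p 0.0922).

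Other genes that were highest at 10 µg/kg came from outside that list. Tgm3 (ENSMUSG00000027401, chromosome 2, 130012349 to 130050399), a transglutaminase that cross-links proteins in surface epithelia, had 0.226, 0.0463 and 0.0525 CPM in vehicle, or 1 to 4 counts per library, and 9.72, 8.78 and 10.5 CPM at 10 µg/kg (log2 change 6.45, SE 0.41, adjusted p 2.96e-05, edgeR). It was at 0 counts at 3 µg/kg and at 0.153, 0.0889 and 0.0548 CPM at 30 µg/kg, and without vehicle replicate 1 its log2 change was 7.42. Tgm3 passed the filter on low counts only through the 10 µg/kg libraries, so its calls lean upward. Slc6a14 (ENSMUSG00000031089, chromosome X, 21714896 to 21742355), a transporter of neutral and cationic amino acids, had 0.169, 0.185 and 0.315 CPM in vehicle and 5.40, 7.04 and 6.61 at 10 µg/kg (log2 change 4.79, SE 0.35, adjusted p 1.94e-05, edgeR). The 3 µg/kg libraries, at 1.36, 1.17 and 1.70 CPM, lay between them, and those of 30 µg/kg had 0.0511, 0.0889 and 0 CPM. 1810065E05Rik (ENSMUSG00000013653, chromosome 11, 58421111 to 58426024), a protein-coding gene, had 1.58, 1.80 and 1.21 CPM in vehicle and 16.4, 17.9 and 13.9 at 10 µg/kg (log2 change 3.38, SE 0.20, adjusted p 4.91e-06, edgeR). It too was highest at 10 µg/kg, with 3.92, 2.98 and 4.17 CPM at 3 µg/kg and 1.99, 1.51 and 1.81 at 30 µg/kg. Tgm3, Slc6a14 and 1810065E05Rik were called against 3 µg/kg (edgeR adjusted p 3.92e-05, 0.00631 and 1.67e-04) and against 30 µg/kg (edgeR adjusted p 1.86e-05, 3.44e-06 and 2.78e-06).

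Mptx1, a mucosal pentraxin on the Paneth cell list, had 0.226, 0.0463 and 0.263 CPM in vehicle and 2.95, 3.99 and 3.43 at 10 µg/kg (log2 change 4.26, SE 0.53, adjusted p 0.00193, edgeR), and at most 0.352 CPM in any library of 3 or 30 µg/kg. Its close relative Mptx2, an abundant Paneth cell gene, had 32.8, 43.6 and 32.0 CPM in vehicle and 83.2, 84.3 and 107 at 10 µg/kg and was not called (log2 change 1.34, SE 0.32, adjusted p 0.0884, edgeR). St6galnac6, a sialyltransferase, had 0.564, 1.48 and 1.89 CPM in vehicle and 6.84, 9.72 and 6.25 at 10 µg/kg (log2 change 2.52, SE 0.35, adjusted p 0.0044, edgeR), and 0.821 to 1.33 CPM at 30 µg/kg. Several low-count genes chosen after their values were seen were also highest at 10 µg/kg. They passed the filter on low counts through treated libraries and not through vehicle, so their calls lean upward. Fa2h, which 2-hydroxylates the fatty acids of sphingolipids, had 0.226, 0.232 and 0.0525 CPM in vehicle, 2.74, 3.56 and 2.57 at 10 µg/kg and 0.0511 to 0.164 at 30 µg/kg (log2 change 4.05, SE 0.44, adjusted p 6.29e-04, edgeR, against vehicle). 2610528A11Rik, which encodes the ligand of the lymphocyte receptor GPR15, had 0.169, 0.509 and 0.105 CPM in vehicle and 3.31, 3.85 and 2.76 at 10 µg/kg (log2 change 3.58, SE 0.54, adjusted p 0.00854, edgeR, and log2 change 4.53 without vehicle replicate 2). Hoxb9, a posterior homeobox gene, had 0.226, 0.0926 and 0.0525 CPM in vehicle and 1.15, 1.52 and 1.35 at 10 µg/kg, and its call was lost without any 1 of the 6 libraries (adjusted p up to 0.172). Ccn3, Thbs4 and Cyp2d34 had at most 0.21 CPM in any vehicle library and between 0.674 and 2.68 CPM at 10 µg/kg, and their calls were also lost in fits that left out 1 library (adjusted p up to 0.148, 0.16 and 0.134). The part of material from another gut segment in these values was not tested.

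**Figure D3:**
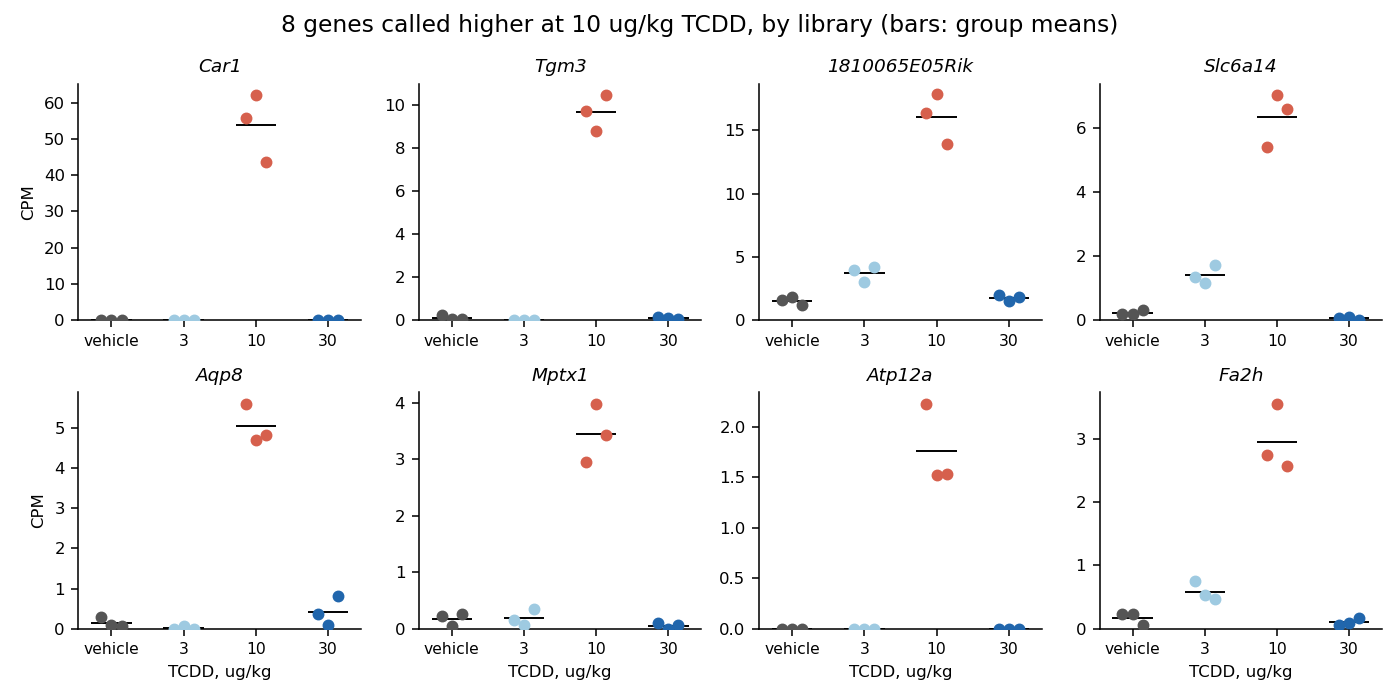
CPM of 8 genes called higher at 10 µg/kg, in each of the 12 libraries by TCDD dose, with bars at the group means (linear axes from 0). The 3 libraries of 10 µg/kg stood above the other 9 in every panel, and Car1 and Atp12a had no count in those 9.

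Among the other genes with large rises, Mt2 (ENSMUSG00000031762, chromosome 8, 94172664 to 94173568), a metallothionein that binds zinc and copper, had 63.1, 45.2 and 51.3 CPM in vehicle and 129.8, 203 and 263 at 10 µg/kg, a 3.74-fold rise (log2 change 1.90, SE 0.29, adjusted p 0.01, edgeR). It had 352, 328 and 265 CPM at 30 µg/kg. The call was lost without vehicle replicate 2 or 3 (adjusted p up to 0.0751), and Mt2 has an antisense neighbor, Gm45774. Mt1, next to it, had 173, 155 and 209 CPM in vehicle and 357, 449 and 496 at 10 µg/kg (log2 change 1.28, SE 0.26, adjusted p 0.0469, edgeR), and its call was lost without any 1 of the 6 libraries (adjusted p up to 0.202). Ildr1 (ENSMUSG00000022900, chromosome 16, 36693978 to 36726804), a protein of tricellular junctions, had 4.00, 3.29 and 2.15 CPM in vehicle and 18.6, 22.6 and 22.7 at 10 µg/kg, a 6.76-fold rise (log2 change 2.76, SE 0.19, adjusted p 1.94e-05, edgeR). Dgkh (ENSMUSG00000034731, chromosome 14, 78558750 to 78732776), a diacylglycerol kinase, had 3.44, 5.14 and 6.57 CPM in vehicle and 31.7, 27.6 and 28.7 at 10 µg/kg (log2 change 2.53, SE 0.26, adjusted p 3.29e-04, edgeR). At 30 µg/kg Ildr1 had 32.7 to 44.0 CPM and Dgkh 34.8 to 48.0 CPM, and the step from 10 µg/kg was called for Ildr1 (edgeR adjusted p 0.0141) but not for Dgkh (0.236).

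Acta1 (ENSMUSG00000031972, chromosome 8, 123891769 to 123894751), the actin of skeletal muscle, had 5.25, 2.31 and 2.00 CPM in vehicle and 25.9, 25.8 and 41.3 at 10 µg/kg (log2 change 3.30, SE 0.41, adjusted p 0.00168, edgeR). It was higher still at 30 µg/kg, with 122, 197 and 77.0 CPM, and the step from 10 µg/kg was called (edgeR adjusted p 0.00566). Of the 15 striated muscle genes listed, 3 were tested and Acta1 was the 1 called. All 3 had a positive log2 change, 2 of them at an unadjusted p under 0.05, and the median was 2.97. Actin genes are so similar in coding sequence that the count of Acta1 is uncertain. Gm15500, a processed pseudogene, had 4.40, 5.42 and 4.99 CPM in vehicle and 24.8, 23.1 and 21.6 at 10 µg/kg (log2 change 2.23, SE 0.16, adjusted p 1.94e-05, edgeR), with the same uncertainty. Gramd1c and Pof1b, chosen after their values were seen for their small spread, illustrate the moderate changes. Gramd1c, which moves cholesterol from the plasma membrane to the endoplasmic reticulum, had 51.4, 52.5 and 46.7 CPM in vehicle and 122, 127 and 122 at 10 µg/kg (log2 change 1.30, SE 0.12, adjusted p 1.54e-04, edgeR). Pof1b, an actin-binding protein of epithelial junctions, had 56.5, 58.4 and 60.4 CPM in vehicle and 111, 118 and 111 at 10 µg/kg (log2 change 0.95, SE 0.09, adjusted p 3.14e-04, edgeR). Both stayed near these levels at 30 µg/kg, at 121 to 154 and 104 to 131 CPM.

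A further set of genes called higher was also chosen after their values were seen. Ccl28, a mucosal chemokine, had 38.4, 33.9 and 35.1 CPM in vehicle and 71.0, 70.5 and 78.6 at 10 µg/kg (log2 change 1.04, SE 0.13, adjusted p 0.00211, edgeR). Ido1, which converts tryptophan to kynurenine, had 38.6, 30.8 and 26.1 CPM in vehicle and 52.2, 86.0 and 91.0 at 10 µg/kg (log2 change 1.26, SE 0.25, adjusted p 0.0394, edgeR). Ubd, a ubiquitin-like modifier, had 18.7, 25.7 and 18.8 CPM in vehicle and 43.4, 48.5 and 64.1 at 10 µg/kg (log2 change 1.30, SE 0.27, adjusted p 0.0497, edgeR), a call just inside the threshold. Hsd11b2, which inactivates glucocorticoids, had 2.71, 4.03 and 3.00 CPM in vehicle and 8.57, 8.997 and 7.29 at 10 µg/kg (log2 change 1.34, SE 0.18, adjusted p 0.00353, edgeR). Car2, a carbonic anhydrase near Car1 on chromosome 3, had 31.2, 30.5 and 28.5 CPM in vehicle and 53.0, 82.3 and 70.4 at 10 µg/kg (log2 change 1.19, SE 0.17, adjusted p 0.00455, edgeR). Car2 fell again at 30 µg/kg (edgeR adjusted p 0.0134 for that step). Without any 1 of the 6 libraries the call of Ubd was lost (adjusted p up to 0.234), and that of Ido1 was lost in 5 of these 6 fits (adjusted p up to 0.195) and held without 10 µg/kg replicate 1. With a smooth muscle score as a covariate the calls of Ccl28, Ido1, Ubd, Hsd11b2 and Car2 were lost (edgeR adjusted p 0.0507 to 0.195).

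Small and ribosomal RNAs made up 9 of the 20 genes called lower. Of 192 tested genes annotated as small nucleolar, Cajal body, nuclear, ribosomal, micro, ribozyme or other small RNA, 9 were called lower and 1 higher, with a median log2 change of -0.25. Rpph1 (ENSMUSG00000092837, chromosome 14, 50807449 to 50807767), the RNA component of ribonuclease P, which trims transfer RNA precursors, had 4130, 3753 and 3875 CPM in vehicle and 1913, 1855 and 1976 at 10 µg/kg. Its vehicle and treated libraries were each tightly grouped and well apart (log2 change -1.03, SE 0.14, adjusted p 0.0044, edgeR). Rmrp, the RNA of the related ribonuclease MRP, had 544, 447 and 468 CPM in vehicle and 232, 234 and 279.5 at 10 µg/kg (log2 change -0.97, SE 0.12, adjusted p 0.00168, edgeR). CT010467.1 (ENSMUSG00000106106, chromosome 17, 39846353 to 39848827), annotated as ribosomal RNA, had 6445, 6333 and 8989 CPM in vehicle and 3298, 3224 and 2962 at 10 µg/kg (log2 change -1.20, SE 0.16, adjusted p 0.00408, edgeR). Rn7s6, a 7S RNA, had 14.7, 13.5 and 17.9 CPM in vehicle and 4.61, 5.73 and 4.72 at 10 µg/kg (log2 change -1.62, SE 0.17, adjusted p 5.56e-04, edgeR). Vaultrc5, a vault RNA, had 75.8, 39.8 and 37.7 CPM in vehicle and 13.5, 12.9 and 13.3 at 10 µg/kg (log2 change -1.94, SE 0.29, adjusted p 0.00719, edgeR), and its call was lost without 10 µg/kg replicate 2 (adjusted p 0.0503). The small nucleolar RNA Gm25776 fell the most, from 19.9, 9.49 and 9.56 CPM in vehicle to 2.38, 1.60 and 1.90 at 10 µg/kg (log2 change -2.72, SE 0.33, adjusted p 0.00159, edgeR). Gm22442, a small Cajal body RNA, had 7.33, 6.85 and 8.72 CPM in vehicle and 3.53, 3.05 and 3.00 at 10 µg/kg (log2 change -1.26, SE 0.18, adjusted p 0.00481, edgeR). Rpph1 and Rmrp were named after their values were seen. Rmrp and CT010467.1 have an antisense neighbor (Ccdc107 and Gm42418), so reads of the 2 strands may be mixed.

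The step to 30 µg/kg ran in the opposite direction for Rpph1 and Rmrp. Rpph1 had 2009, 1807 and 1391 CPM at 3 µg/kg and 9492, 11740 and 10070 at 30 µg/kg, so that vehicle lay between the lower and the highest dose. The step from 10 to 30 µg/kg was called for Rpph1 (log2 change 2.45, SE 0.15, adjusted p 2.47e-06, edgeR) and Rmrp (log2 change 2.00, SE 0.12, adjusted p 2.47e-06, edgeR), and that from 3 to 10 µg/kg was not, with adjusted p of 1 and 1 in edgeR. The summed level of the 192 RNAs was 13910 to 16940 CPM in vehicle, 7752 to 8865 at 10 µg/kg, 7855 to 9960 at 3 µg/kg and 19070 to 22820 at 30 µg/kg. CT010467.1 and Rpph1 held 71.1 to 75.9% of that sum in vehicle and 57.3 to 63.7% at 10 µg/kg, and the other 190 summed to 3819 to 4288 CPM in vehicle and 2813 to 3786 at 10 µg/kg. The share of reads assigned to no gene was 29.36 to 29.41% in vehicle and 27.98 to 29.06% at 10 µg/kg but 25 to 25.42% at 30 µg/kg, where reads without a unique position were 36.25 to 38.79% against 31.87 to 34.64% in vehicle and at 10 µg/kg. The part of library preparation in the noncoding RNA values was not tested.

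**Figure D4:**
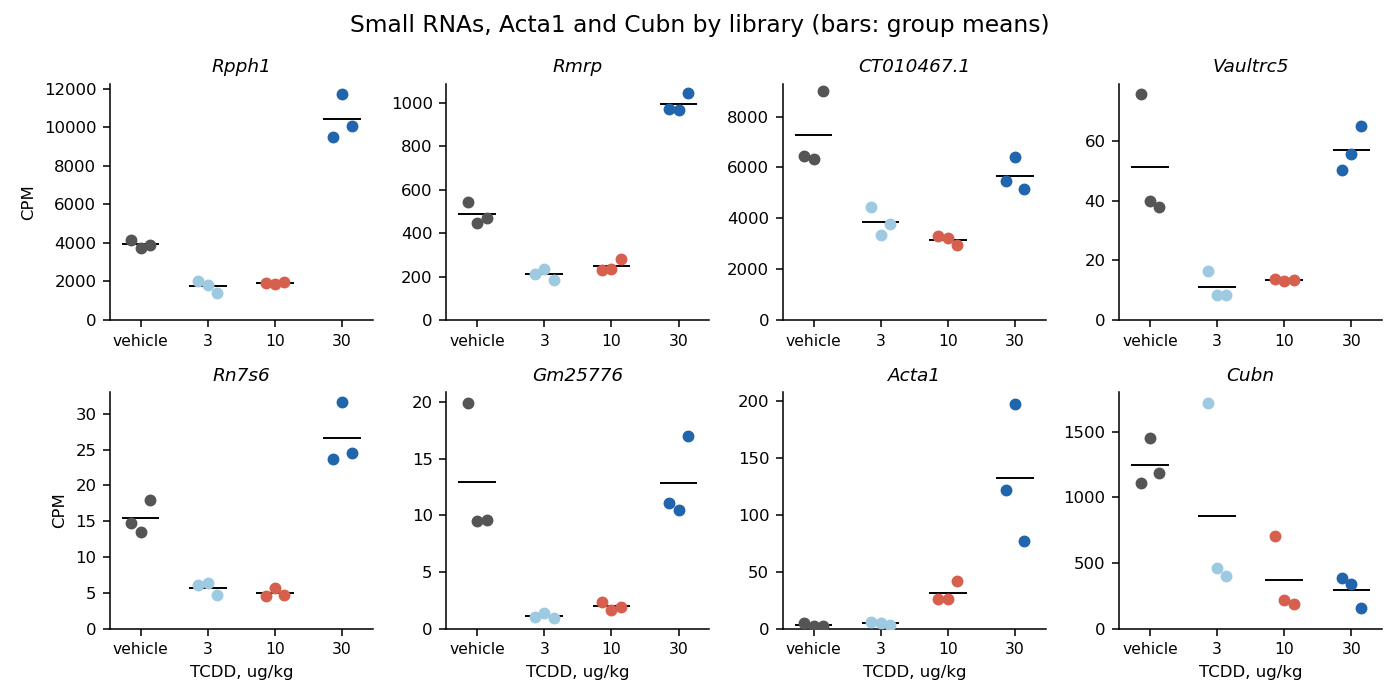
CPM of 6 noncoding RNAs, Acta1 and Cubn in each of the 12 libraries, by TCDD dose, with bars at the group means (linear axes from 0). The 6 noncoding RNAs were lower at 10 µg/kg than in vehicle and higher again at 30 µg/kg, whereas Cubn split within the 3 and 10 µg/kg groups.

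Among protein-coding genes called lower, Prr5l (ENSMUSG00000032841, chromosome 2, 101714285 to 101883027), a component bound to mTOR complex 2, had 5.19, 8.93 and 7.25 CPM in vehicle and 1.73, 2.10 and 2.08 at 10 µg/kg (log2 change -1.85, SE 0.31, adjusted p 0.0169, edgeR). It stayed at 1.69 to 2.96 CPM at 30 µg/kg. Romo1, a mitochondrial membrane protein, had 10.3, 6.67 and 7.88 CPM in vehicle and 3.24, 3.63 and 2.45 at 10 µg/kg (log2 change -1.41, SE 0.28, adjusted p 0.0389, edgeR) but 12.1 to 14.2 CPM at 30 µg/kg. AA474408, a locus that the annotation lists as to be tested by experiment, had 9.36, 8.79 and 8.72 CPM in vehicle and 3.10, 4.64 and 3.25 at 10 µg/kg (log2 change -1.29, SE 0.21, adjusted p 0.0129, edgeR). All 3 have an antisense neighbor, so that reads of the 2 strands may be mixed. Their calls were lost in fits that left out 1 library, in 5 of 6 for Prr5l (adjusted p up to 0.0853), 6 of 6 for Romo1 (up to 0.224) and 4 of 6 for AA474408 (up to 0.089).

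Genes of Cbl absorption were examined because the study concerned Cbl supply. Cubn, which encodes cubilin, the receptor that takes up the Cbl-intrinsic factor complex, had 1109, 1452 and 1185 CPM in vehicle and 707, 221 and 185 at 10 µg/kg. The treated libraries lay below vehicle without overlap but differed among themselves, and the change was not called (log2 change -1.75, SE 0.60, adjusted p 0.193, edgeR). The treated library with the highest Cubn was also the one with high Dbp. In vehicle the library with low Dbp had 1109 CPM of Cubn, near the 1185 of a library with high Dbp. With a clock score as a covariate Cubn was called (log2 change -1.53, adjusted p 0.0254, edgeR). Beyond this fit, the part of clock phase in the spread was not tested. Cubn was also called in edgeR with no filter on low counts (adjusted p 0.0314) and in none of the other 16 settings. Amn, the membrane partner of cubilin, had 96.9, 116 and 112 CPM in vehicle and 92.5, 87.6 and 73.7 at 10 µg/kg (log2 change -0.36, SE 0.16, adjusted p 0.296, edgeR). Lmbrd1, which exports Cbl from lysosomes, had 84.4, 86.8 and 95.5 CPM in vehicle and 80.1, 77.2 and 79.6 at 10 µg/kg (log2 change -0.17, SE 0.10, adjusted p 0.406, edgeR). Abcc1, a transporter that releases Cbl from the cell, had 9.48, 12.0 and 12.2 CPM in vehicle and 14.5, 13.8 and 14.9 at 10 µg/kg (log2 change 0.35, SE 0.18, adjusted p 0.346, edgeR). Tcn2, transcobalamin 2, which carries Cbl in blood, had 390.5, 388 and 359 CPM in vehicle and 305, 307 and 316 at 10 µg/kg (log2 change -0.29, SE 0.13, adjusted p 0.293, edgeR). Of the 5 genes 0 were called in the main edgeR fit and 0 in DESeq2, 3 had an unadjusted p under 0.05, all lower, and the median log2 change was -0.29.

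Intracellular Cbl and propionate pathways held 0 called genes in edgeR, and DESeq2 called 1 Cbl trafficking gene. Of 9 Cbl trafficking genes, 2 had an unadjusted p under 0.05, both higher, and the median was 0.14. These were Mmadhc, which directs Cbl within the cell, at 21.3, 22.6 and 22.7 CPM in vehicle and 28.0, 25.4 and 31.7 at 10 µg/kg (log2 change 0.36, SE 0.10, adjusted p 0.117, edgeR), and Mmab, which makes adenosylcobalamin, at 5.87, 6.62 and 6.36 and 9.22, 9.51 and 10.9 CPM (log2 change 0.65, SE 0.18, adjusted p 0.124, edgeR). Of 4 carboxylation genes 2 had an unadjusted p under 0.05, both higher, led by Pcca, a subunit of propionyl-CoA carboxylase, at 7.33, 9.07 and 7.62 CPM in vehicle and 11.7, 10.2 and 11.6 at 10 µg/kg (log2 change 0.48, SE 0.14, adjusted p 0.14, edgeR). Of 5 genes of the β-oxidation-like route 0 had an unadjusted p under 0.05, and of 4 itaconate and macrophage genes 1 did. The Cbl lists cover a pathway that the study examined in intestine and are not independent evidence.

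Lists of epithelial cell types and functions had few called members and are described by their medians, beside -0.01 for all genes tested. Of 15 Paneth cell genes, Mptx1 and Nupr1 were called and the median was 0.45, with 7 higher and 1 lower at an unadjusted p under 0.05. Mptx1 passed the filter on low counts only through the 10 µg/kg libraries, and the more abundant Mptx2 was not called. Nupr1, a stress-response chromatin protein, had 4.40, 4.26 and 4.36 CPM in vehicle and 7.13, 8.34 and 8.33 at 10 µg/kg (log2 change 0.87, SE 0.17, adjusted p 0.0372, edgeR), and its call was lost without any 1 of the 6 libraries (adjusted p up to 0.177). Of 14 goblet cell genes, Klk1, a kallikrein, was the 1 called, with 14.3, 14.3 and 10.98 CPM in vehicle and 21.2, 21.3 and 22.1 at 10 µg/kg (log2 change 0.71, SE 0.13, adjusted p 0.0261, edgeR), and was lost in 5 of 6 such fits (adjusted p up to 0.121). The goblet list had a median of 0.23, and its main mucin, Muc2, had 3824, 4124 and 3158 CPM in vehicle and 3849, 4215 and 3735 at 10 µg/kg. Of 18 proliferation genes all had a positive log2 change, 9 had an unadjusted p under 0.05, 0 were called in edgeR or DESeq2, and the median was 0.49. Birc5, an inhibitor of cell death expressed in mitosis, had 12.0, 14.3 and 17.3 CPM in vehicle and 18.1, 19.2 and 21.1 at 10 µg/kg (log2 change 0.42, SE 0.15, adjusted p 0.211, edgeR).

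Of 18 cholesterol synthesis genes 0 were called in edgeR and 3 in DESeq2, 11 had an unadjusted p under 0.05, all higher, and the median was 0.41. Of 16 ER stress genes 0 were called in edgeR or DESeq2 and 8 had an unadjusted p under 0.05, all higher (median 0.27), led by the chaperone cofactor Sdf2l1 at 17.9, 16.8 and 17.8 CPM in vehicle and 22.7, 25.2 and 26.7 at 10 µg/kg (log2 change 0.51, SE 0.11, adjusted p 0.0756, edgeR). Of 16 enteroendocrine genes Chgb, a granin of secretory granules, had an adjusted p under 0.05 but a change of under 1.5-fold, with 65.2, 62.3 and 58.3 CPM in vehicle and 95.0, 75.9 and 93.7 at 10 µg/kg (log2 change 0.51, SE 0.10, adjusted p 0.0389, edgeR). Sugar digestion and absorption genes were all negative, with a median of -0.31 over 10 genes, 2 of them at an unadjusted p under 0.05. Slc5a9, a sodium-dependent hexose transporter, had 72.5, 75.6 and 59.6 CPM in vehicle and 49.4, 48.2 and 48.3 at 10 µg/kg (log2 change -0.51, SE 0.12, adjusted p 0.0847, edgeR). The intestinal alkaline phosphatases did not pass the test, with Akp3 at 23.9, 25.6 and 19.3 CPM in vehicle and 0.792, 2.03 and 5.70 at 10 µg/kg (log2 change -2.98, SE 0.77, adjusted p 0.109, edgeR) and Alpi at 921, 971 and 854 and 449, 676 and 739 CPM (log2 change -0.56, SE 0.20, adjusted p 0.212, edgeR). Proximal enterocyte, distal enterocyte, brush border peptidase, fat absorption, villus tip, stem cell, tuft cell, tight junction and iron lists had 0 called genes in edgeR, 0 or 1 in DESeq2, 0 to 3 at an unadjusted p under 0.05, and medians between -0.23 and 0.21. Ribosomal protein genes, a list added later, had a median of 0.14 over 82 genes, with Rpl39, Rps23 and Rpl27 called higher (log2 changes 0.88, 0.86 and 0.59) and each lost in at least 5 of the 6 fits without 1 library (adjusted p up to 0.107, 0.117 and 0.201).

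**Figure D5:**
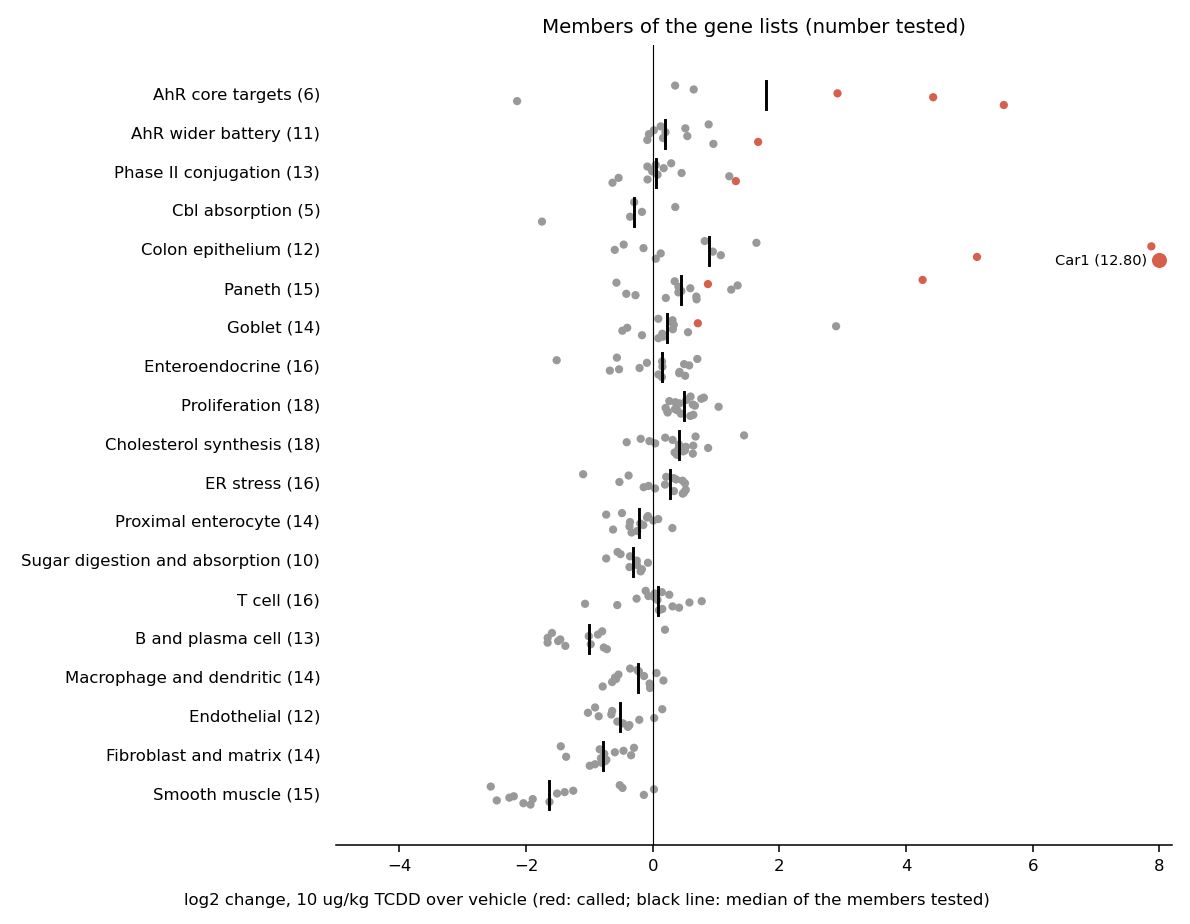
Log2 change at 10 µg/kg TCDD over vehicle of the tested members of 19 gene lists, 1 point per gene, red where called, with a black line at the list's median. Car1 lies beyond the axis and is drawn at its edge with its fitted value, and the smooth muscle, B and plasma cell and fibroblast lists lie mostly below 0.

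Smooth muscle, fibroblast, endothelial, B and plasma cell, macrophage and T cell lists had 0 called genes in edgeR, and all but the T cell list had mostly lower values at 10 µg/kg. DESeq2 called 4 smooth muscle genes, 2 B and plasma cell genes, 1 fibroblast and matrix gene and 1 macrophage and dendritic gene lower, and 1 T cell gene higher. Of 15 smooth muscle genes 14 had a negative log2 change, 11 were lower at an unadjusted p under 0.05 (7.88% of all genes tested), 11 were lower without overlap between the groups (11% of all genes tested), and the median was -1.63. Their summed level was 421.9 to 709.2 CPM in vehicle and 357.2 to 394 CPM at 10 µg/kg. Myh11, the smooth muscle myosin heavy chain, had 92.6, 25.3 and 36.9 CPM in vehicle and 12.2, 16.2 and 9.19 at 10 µg/kg (log2 change -2.04, SE 0.64, adjusted p 0.164, edgeR). Flna, an actin cross-linker, had 75.5, 43.2 and 57.5 CPM in vehicle and 28.9, 29.3 and 15.7 at 10 µg/kg (log2 change -1.26, SE 0.32, adjusted p 0.105, edgeR). Of 14 fibroblast and matrix genes all were negative, 8 at an unadjusted p under 0.05 (median -0.79), with Dcn, the matrix proteoglycan decorin, at 4.68, 6.43 and 6.04 CPM in vehicle and 3.17, 2.83 and 0.735 at 10 µg/kg (log2 change -1.37, SE 0.40, adjusted p 0.143, edgeR). Of 13 B and plasma cell genes 12 were negative (median -1.01), and Mzb1, a plasma cell chaperone, had 1.47, 2.22 and 3.52 CPM in vehicle and 1.08, 0.653 and 0.551 at 10 µg/kg (log2 change -1.66, SE 0.42, adjusted p 0.0996, edgeR). Endothelial genes had a median of -0.52 over 12 genes and macrophage and dendritic genes one of -0.23 over 14, with 2 and 5 of them lower at an unadjusted p under 0.05. T cell genes had a median of 0.09 over 16 genes, led by the granzyme gene Gzmb at 54.5, 47.8 and 39.7 CPM in vehicle and 63.3, 87.7 and 91.6 at 10 µg/kg (log2 change 0.77, SE 0.17, adjusted p 0.075, edgeR). With the smooth muscle score as a covariate, 28 of the 97 genes were called, among them Cyp1a1, Cyp1b1, Ahrr, Car1, Tgm3, Slc6a14 and Rpph1. The score did not overlap between the groups (2.89 to 4.224 in vehicle and 1.792 to 2.394 at 10 µg/kg), so this covariate and the dose can be told apart only in part, and the part of muscle content in the other results was not tested.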

How the data were processed

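Total RNA from scrapings of the proximal ileal epithelium was sequenced in 12 libraries, 3 for each of 4 groups. The authors deposited raw counts per gene for each library. Per the submitters' processing notes the tools were FastQC 0.11.3, Trimmomatic 0.33, TopHat2 2.1.0, SAMtools 1.2.0, HTSeq 0.6.1 and DESeq with GRCm38. The annotation release and strand setting are not given in the sources used here. Lines for unassigned reads were left out of library sizes. Of 46078 genes, 45229 matched GENCODE M21, which gave names, positions and antisense neighbors, and genes without a match held 0.749% of counts.

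Genes kept by filterByExpr were tested with the edgeR 4.0.16 quasi-likelihood test (R 4.3.3, TMM scaling) fitted to all 12 libraries in 4 groups, so that the groups shared 1 estimate of the spread. A call needed an adjusted p under 0.05 (Benjamini-Hochberg) and a 1.5-fold change. The fit was tested on simulated data. The text names all AhR core targets and Cbl absorption genes, the 12 largest rises and 8 largest falls among called genes with a mean count of at least 50 and no overlap, called members of gene lists, and up to 2 members of the other lists by p. Genes and lists were chosen with earlier results of these data known. Marker genes (Dbp, Fabp2, Muc2, Myh11, the red cell genes, the colon genes below the filter and Ugt1a9) and those the report says so of were picked after their values were seen. The 18 alternatives used DESeq2 1.42.0, limma 3.58.1 (voom), other scalings and filters, covariates (library index, clock score, smooth muscle score), a length correction, the 6 libraries alone, and each library left out. Some genes that these rules select are not reported here.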

Additional observations from a re-analysis of the deposited data

How the results depend on the processing

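Of the 97 genes called at 10 µg/kg (77 higher, 20 lower, 79.4% higher), 14 of the higher and 4 of the lower were called in each of the 18 alternatives. DESeq2 called 262 genes (147 higher, 115 lower, 56.1% higher) and the edgeR fit with no filter on low counts called 215 (123 higher, 92 lower, 57.2% higher), and both kept all 97. Adding the library index as a covariate gave 59 calls (45 higher), the smooth muscle score 28 (23 higher, 5 lower), and the clock score 40 lower genes and 69.5% higher. With a mean count of at least 50, 49 genes were called higher. Leaving out 1 library gave 45 to 59 calls, 34 to 42 higher and 10 to 17 lower. DESeq2 called 43 genes between 10 and 3 µg/kg, against 25. Calls in the colon epithelium list numbered 3, against 6 with DESeq2, 5 with no filter, 1 with a mean count of at least 50 and 1 with the smooth muscle score. A higher filter tests fewer genes and a left-out library leaves fewer samples, and for the other settings the cause was not tested. None of the values recomputed changed sign. List members given only as values, such as Selenbp1 and Myh11, were not recomputed, and the comparisons between treated doses were recomputed under 3 alternatives as counts of calls. No paired analysis was possible because the labels give no replicate numbers. The replicate numbers used in this report follow the order of the samples in the series. Depth limits genes under about 0.139 to 0.218 CPM, the level of 3 counts in these 6 libraries.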

Other observations

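Some called genes lay next to one another on GRCm38. Exoc3, an exocyst subunit, lies 2.39 kb from Ahrr on the same strand, with log2 changes of 0.76 and 2.92. Rmdn2, a microtubule regulator, lies 8.35 kb from Cyp1b1, with log2 changes of 1.16 and 4.43. Mt1 lies 5.51 kb from Mt2, and Gm53 lies 6.59 kb from Hoxb9. Car1 and Car2 lie 77.9 kb apart with 1 tested gene between them. These pairs were listed after the calls were known, and whether called genes neighbor each other more often than other genes was not tested.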
